A study of Homo sapiens with 15 samples.

Results

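The genes described here are 9 genes that are commonly read as signs of mesenchymal or epithelial identity, among the 59608 genes of the table. They were taken by symbol: VIM, the transcription factor genes ZEB1, SNAI2 and TWIST1, and the keratin genes KRT7, KRT8, KRT18, KRT19 and KRT81. RNA was measured in MDA-MB-231, an established breast cancer cell line without estrogen receptor that grows with a spindle-like, mesenchymal form. Dishes in 2D culture received ZJ-101, a truncated form of superstolide A, a natural product of a marine sponge, at 0.5, 5, 50 or 500 nM, or 0.1% DMSO as the vehicle control. All dishes were harvested 6 h later, and each of the 5 groups had 3 replicates, so the 15 libraries describe 1 cell line at 1 time point. The comparisons ask whether the identity genes of the line moved with the dose of the compound.

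Intermediate filaments are the tough, rope-like part of the cytoskeleton. Vimentin builds them in mesenchymal cells, whereas keratins build them in epithelial cells as pairs of a type I and a type II chain. In an epithelial-to-mesenchymal transition, ZEB1, SNAI2 (Slug) and TWIST1 act in the nucleus, where ZEB and Snail proteins repress epithelial genes, and cells lose junctions and keratins and gain vimentin. Carcinoma lines often hold both filament systems at once.

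Levels between genes are compared here as normalized counts per kilobase of the canonical transcript, where a normalized count is a read count divided by the size factor of its library. In DMSO, KRT8 stood at 6789 ± 214 (SD, n = 3), VIM at 6655 ± 143 (SD, n = 3) and KRT81 at 6510 ± 346 (SD, n = 3) per kilobase. These 3 did not differ beyond their spread between libraries. KRT19 followed at 4519 ± 45.5 (SD, n = 3), KRT7 at 4091 ± 40.9 (SD, n = 3) and KRT18 at 3113 ± 70.9 (SD, n = 3). Each was apart from its neighbours by that spread. The spread does not cover the transcript length chosen or reads shared with similar genes, so the order between genes is uncertain. The canonical KRT8 transcript has 1784 bases, and its exons together 6881. ZEB1 had 219 ± 10.2 (SD, n = 3) and SNAI2 56.7 ± 6.03 (SD, n = 3) per kilobase, and TWIST1 had 0 reads in DMSO. Transcripts of both filament systems were thus abundant in the untreated line, and of the 3 transcription factor genes ZEB1 had the highest level and TWIST1 had none.

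Other markers of the line were checked in the same libraries. CD44 had 9275 to 12291 normalized counts, AXL 12148 to 14423, EGFR 3471 to 8610 and MSN 15270 to 17908. The estrogen receptor gene ESR1 had at most 4.30, and the luminal and epithelial regulators FOXA1 and ESRP1 at most 31.9 and 10.0. CDH1, which encodes E-cadherin, had 107 to 206, EPCAM 266 to 320, GATA3 122 to 168, ERBB3 83.2 to 117 and PGR 5.37 to 17.3. The leukocyte marker PTPRC had at most 3.53, whereas the endothelial marker PECAM1 had 200.8 to 321, so that this marker was not absent. The libraries held between 12415519 and 15284762 reads on genes. The library labelled 0.5 nM replicate 2 stood apart. Its genes deviated from their median over the libraries by a median of 0.149 on the log2 scale, against 0.0628 to 0.101 in the other 14 libraries. It was the highest library for 18.1% and the lowest for 19.0% of the tested genes. It was also the highest for VIM and for all 5 keratins and the lowest for ZEB1. The log2 fold changes of the tested identity genes at 0.5 nM and the numbers of them called are therefore given with and without it. At that dose the changes of CDH1 and MUC1, the overlap of groups and the keratin shares and ratios are given with it only.

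Of the 8 genes that passed the filter of a mean of at least 10 normalized counts, 1 fell at 500 nM (KRT19), 0 rose and 7 did not pass the test (limma on log2(normalized count + 1), adjusted p under 0.05). Over all 13561 genes tested, 17.8% were called at 500 nM. At 0.5, 5 and 50 nM limma called 0 of the 8, where it called 1.17%, 2.18% and 6.00% of all genes. At an unadjusted p under 0.05 there were 4 at 0.5 nM, 3 at 5 nM, 0 at 50 nM and 2 at 500 nM, beside 14.7%, 12.9%, 17.4% and 29.3% of all genes. Without 0.5 nM replicate 2, limma also called 0 of the 8 at 0.5 nM, and 1 had an unadjusted p under 0.05. Of all 13561 genes, 154 were called in that comparison and 1720 had an unadjusted p under 0.05. With edgeR 0 of the 8 were called at 0.5, 5 and 50 nM, and with DESeq2 1 was called at 0.5 nM (KRT81) and 0 at 5 and 50 nM. Of all genes, edgeR called 135, 326 and 820 at these doses and DESeq2 231, 352 and 834. The median log2 fold change of the 8 genes at 500 nM was -0.08, beside 0.003 for all genes tested. All doses share the DMSO libraries, and as in any bulk sample a lower share of cells with a transcript and less of it per cell cannot be told apart.

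**Figure D1:**
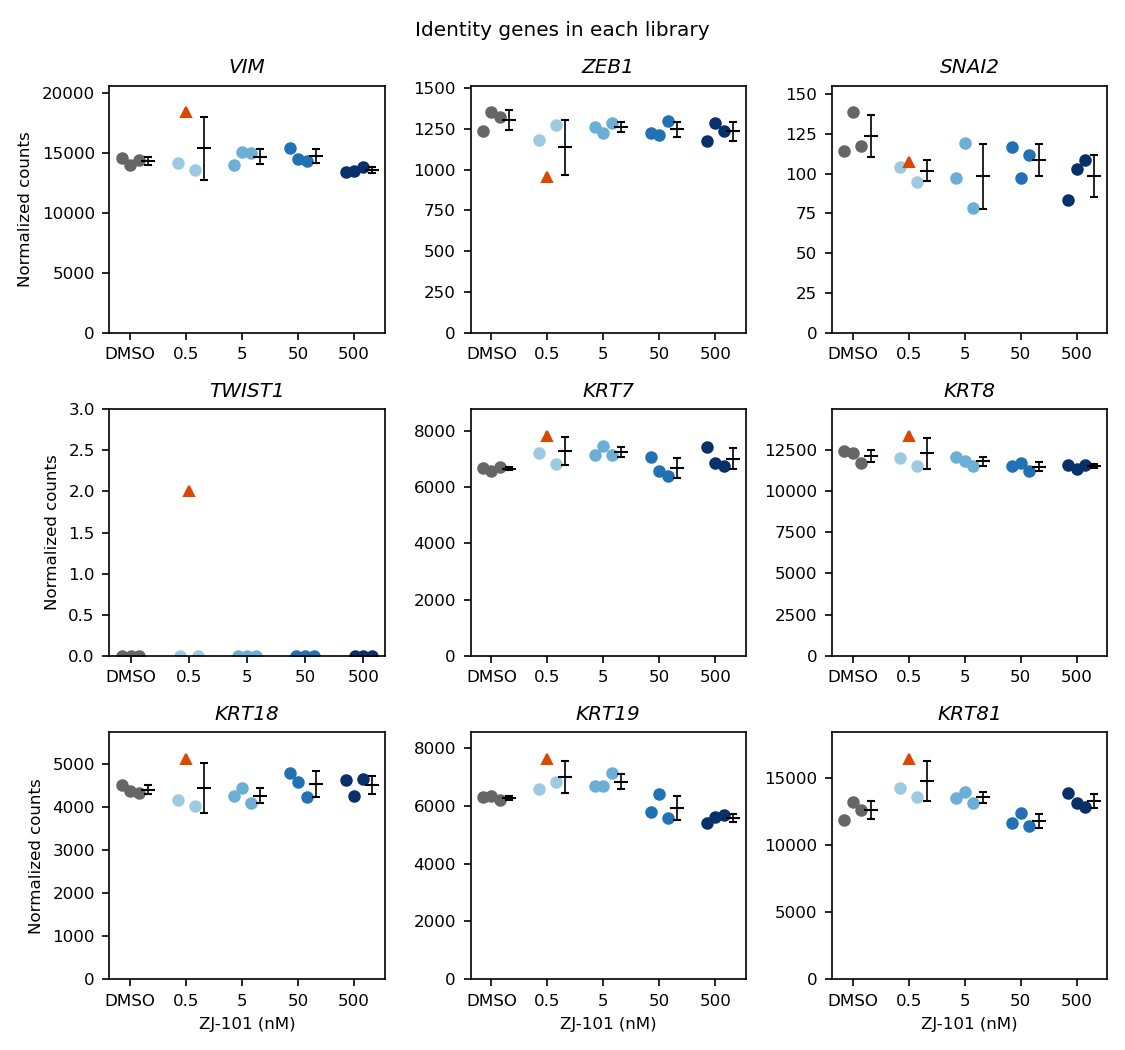
Normalized counts (y axis, linear, from 0) of each of the 9 genes in each library (points) by group (x axis, DMSO or nM ZJ-101), with the mean and SD of the 3 libraries as a black bar beside each group, except for TWIST1. The orange triangle is 0.5 nM replicate 2, the highest library for VIM and all 5 keratins, and the KRT19 points at 500 nM lie below all others of that gene except 1 at 50 nM.

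VIM, the vimentin gene, lies at chr10:17228241-17237593 on the plus strand. It had 14599, 13996 and 14413 normalized counts in the DMSO libraries and 13433, 13482 and 13856 in the 500 nM libraries. Each 500 nM library was below every DMSO library, which held at this dose for 4 of the 8 genes (VIM, SNAI2, KRT8 and KRT19) and for 19.6% of all genes tested. The log2 fold change of -0.08 (95% interval -0.24 to 0.08) did not pass the test (adjusted p = 0.57, limma). In this fit of all libraries, the interval leaves room for a fall of 15.3% and a rise of 6.07%. Leaving out 0.5 nM replicate 2 narrowed it to -0.16 to 0.004, and VIM again did not pass (adjusted p = 0.17, limma). The standard error went from 0.077 to 0.039, although the DMSO and 500 nM libraries compared were the same. At 5 nM VIM had 14025, 15092 and 15038 normalized counts, and at 50 nM 15459.8, 14529 and 14366. Both groups overlapped DMSO, with log2 fold changes of 0.04 each. At 0.5 nM the values were 14196, 18413 and 13587, so that the log2 fold change of 0.09 rested on replicate 2 and was -0.05 without it (adjusted p = 0.64 with and 0.73 without, limma). VIM shares 24.6% of its exon bases with genes on the opposite strand, VIM-AS1 among them, and the sources used here do not say whether reads were counted by strand.

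ZEB1, a zinc-finger repressor of CDH1 and other epithelial genes, lies at chr10:31318495-31529814 on the plus strand. It had 1235, 1352 and 1323 normalized counts in DMSO and 1180, 953 and 1276 at 0.5 nM. Replicate 2 was again the farthest, and the groups overlapped. The log2 fold change at 0.5 nM was -0.21 (95% interval -0.37 to -0.05, adjusted p = 0.21, limma), and without that library it was -0.09 (-0.20 to 0.03, adjusted p = 0.56). Without 0.5 nM replicate 3 it passed the test, at -0.30 (adjusted p = 0.037, limma). ZEB1 had 1265, 1227 and 1288 normalized counts at 5 nM, 1228, 1214 and 1301 at 50 nM and 1177, 1289.5 and 1239 at 500 nM. These groups overlapped DMSO, and the log2 fold change at 500 nM was -0.08 (95% interval -0.24 to 0.08, adjusted p = 0.57, limma).

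SNAI2 encodes Slug, a repressor of the Snail family, and lies at chr8:48917598-48921740 on the minus strand. It was measured with few reads, 76 to 137 per library, and had the widest intervals of the 8 genes. It had 114, 139 and 118 normalized counts in DMSO and 83.6, 103 and 109 at 500 nM. All 3 of the latter were below DMSO. The log2 fold change of -0.33 (95% interval -0.64 to -0.02) did not pass after adjustment (unadjusted p = 0.038, adjusted p = 0.14, limma). The libraries had 104, 107 and 94.8 normalized counts at 0.5 nM, 97.6, 119 and 78.3 at 5 nM and 117, 97.1 and 112 at 50 nM. All 3 libraries at 0.5 nM were below DMSO, as for 1 of the 8 genes and 10.7% of all genes tested. The means of all 4 doses were below that of DMSO, with log2 fold changes of -0.27, -0.34, -0.18 and -0.33 in order of dose, none past the threshold (adjusted p between 0.14 and 0.60). Without 0.5 nM replicate 2 the value at 0.5 nM was -0.31 (95% interval -0.65 to 0.03, adjusted p = 0.46, limma). The slope of SNAI2 on the rank of the dose was -0.06 per step (95% interval -0.13 to 0.01, adjusted p = 0.28, limma).

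TWIST1, a basic helix-loop-helix factor of mesoderm and of the transition, lies at chr7:19020991-19117636 on the minus strand. It had 2 reads in 0.5 nM replicate 2 and 0 in the other 14 libraries. A count of 0 allows up to 3 reads in a library, so TWIST1 was not detectable at this depth in 14 libraries and no comparison between doses could be made.

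KRT19, a type I keratin without the tail domain of other keratins, was the 1 identity gene that passed the test against DMSO, at 500 nM. It lies at chr17:41523617-41528308 on the minus strand and shares 0 exon bases with another gene. Its DMSO libraries had 6308, 6327 and 6209 normalized counts, the tightest of its groups (SD 63.3). At 500 nM it had 5414, 5603 and 5685. These 3 libraries were below every DMSO library. KRT19 fell by 0.17 on the log2 scale (standard error 0.06, 95% interval -0.29 to -0.06, adjusted p = 0.036, limma), a change of -11.4% (-18.3% to -3.89%). The call was lost without any of the 3 DMSO or the 3 500 nM replicates (adjusted p = 0.13 at most, log2 fold change -0.19 to -0.15) and with no filter on low genes (adjusted p = 0.079).

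The lower doses of KRT19 lay on the other side of DMSO. At 0.5 nM it had 6582, 7630 and 6825 normalized counts, and at 5 nM 6680.1, 6684 and 7137. All 6 libraries were above every DMSO library. The log2 fold changes of 0.16 at 0.5 nM (95% interval 0.04 to 0.27, adjusted p = 0.20, limma) and 0.12 at 5 nM (95% interval 0.00 to 0.24, adjusted p = 0.37, limma) did not pass. Without 0.5 nM replicate 2 the former was 0.09 (-0.01 to 0.20). In the 6 libraries of 5 nM and DMSO alone, KRT19 passed at 0.12 (adjusted p = 0.048, limma). At 50 nM it had 5787, 6412 and 5585, with replicate 2 above and the others below DMSO. The step from 5 to 50 nM passed the test, with a log2 difference of -0.21 (standard error 0.06, 95% interval -0.32 to -0.09, adjusted p = 0.037, limma). At this step 1 of the 8 genes was called, beside 5.01% of all genes tested. From 0.5 to 5 nM and from 50 to 500 nM limma called 0 of the 8 (0 and 1 at an unadjusted p under 0.05, 0 with edgeR or DESeq2), beside 0.118% and 2.28% of all genes. Of all 13561 genes, 1079 and 1773 had an unadjusted p under 0.05. The KRT19 step from 5 to 50 nM kept its call in 5 of 15 fits that each left out 1 library. Its adjusted p lay between 0.0045 (without 0.5 nM replicate 2) and 0.18 (without 5 nM replicate 3). From 50 to 500 nM the log2 difference of KRT19 was -0.09 (95% interval -0.20 to 0.03, adjusted p = 0.53, limma).

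Over all 15 libraries KRT19 had a slope of -0.06 per rank of dose, counted from 0 for DMSO to 4 for 500 nM (standard error 0.02, 95% interval -0.10 to -0.02, adjusted p = 0.035, limma). It was the 1 gene of the 8 with a called slope, beside 17.6% of all genes tested. The group means did not fall evenly along the ranks. They were 6281 ± 63.3, 7012 ± 549, 6834 ± 262, 5928 ± 431 and 5567 ± 139 normalized counts (SD, n = 3 each) from DMSO to 500 nM. The slope was no longer called without 0.5 nM replicate 3, 50 nM replicate 1 or 3, or any 500 nM replicate (adjusted p = 0.12 at most).

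KRT81, a type II keratin best known from the hair cortex, lies at chr12:52285913-52291534 on the minus strand. In DMSO it had 11858, 13189 and 12624 normalized counts, and at 0.5 nM 14235.5, 16393 and 13529.9. All 3 libraries at 0.5 nM were above DMSO. This held in the upward direction for 3 of the 8 genes (KRT81, KRT19 and KRT7) and for 7.43% of all genes tested, and KRT81, at 0.23 (95% interval 0.10 to 0.36), came closest to the threshold (unadjusted p = 0.0018, adjusted p = 0.092, limma). It passed with DESeq2 (adjusted p = 0.017), with the replicate block (adjusted p = 0.040) and without 0.5 nM replicate 3 (adjusted p = 0.022, limma). Without replicate 2, the library that stood apart, the log2 fold change was 0.15 (0.04 to 0.25, adjusted p = 0.20).

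KRT81 had 13502, 13955 and 13098 normalized counts at 5 nM, 11637, 12361 and 11366 at 50 nM and 13870.0, 13123 and 12779.8 at 500 nM. The 50 nM libraries lay below all those at 5 and 500 nM. Being below 5 nM in this way held for 3 of the 8 genes (KRT19, KRT81 and KRT7) and 11.8% of all genes tested. From 50 to 500 nM, 1 of the 8 was above (KRT81, beside 9.67% of all genes) and 1 below (VIM, beside 10.5%). The difference from 5 to 50 nM was -0.20 on the log2 scale (95% interval -0.33 to -0.07, adjusted p = 0.078, limma) and that from 50 to 500 nM 0.17 (95% interval 0.04 to 0.30, adjusted p = 0.22, limma). The former passed with the replicate block (adjusted p = 0.030), with DESeq2 (0.032), in the 6 libraries of both doses alone (0.018) and without 0.5 nM replicate 3 (0.043). Without 0.5 nM replicate 2, which enters these steps through the shared estimate of the spread, both passed (adjusted p = 0.0076 and 0.033). Against DMSO the log2 fold change at 500 nM was 0.08 (95% interval -0.05 to 0.21, adjusted p = 0.44, limma). KRT81 and KRT86, its neighbour and close relative, align over 1325 bases of their transcripts with 96.6% identity and an identical run of 605 bases, so reads between them are uncertain. KRT86 had 108 to 170 normalized counts.

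KRT7, the type II keratin of simple and glandular epithelia, lies at chr12:52232520-52252186 on the plus strand. It had 6659.5, 6577 and 6708 normalized counts in DMSO, 7196, 7818 and 6821 at 0.5 nM and 7147, 7449 and 7117 at 5 nM. Both low doses were above DMSO in every library. At 5 nM this held for 2 of the 8 genes (KRT7 and KRT19) and for 10.5% of all genes tested. The log2 fold changes of 0.13 (95% interval 0.02 to 0.24, adjusted p = 0.26, limma) and 0.12 (95% interval 0.01 to 0.23, adjusted p = 0.31, limma) did not pass, and the former was 0.08 without 0.5 nM replicate 2. In the 6 libraries of 5 nM and DMSO alone, KRT7 passed at 0.12 (adjusted p = 0.033, limma). At 50 nM KRT7 had 7067, 6565 and 6396 and overlapped DMSO, with a log2 fold change of 0.00 (95% interval -0.11 to 0.11). At 500 nM it had 7428, 6863 and 6726, again above DMSO, which held for 1 of the 8 genes and for 18.9% of all genes tested, at 0.07 (95% interval -0.04 to 0.18, adjusted p = 0.38, limma).

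KRT8 and KRT18 are the first keratins of the embryo and pair with each other in simple epithelia. Keratin genes lie mostly in clusters on chromosomes 12 (type II) and 17 (type I), and KRT18 is the type I gene that sits beside KRT8 on chromosome 12. KRT8, of type II, lies at chr12:52897187-52949954 on the minus strand, and KRT18, of type I, at chr12:52948871-52952906 on the plus strand. Their exons overlap by 525 bases on opposite strands, and each has 2 near-identical pseudogenes, so a part of their reads is uncertain. KRT8 had 12388, 12269 and 11676 normalized counts in DMSO and 11568, 11348 and 11539 at 500 nM. The 500 nM libraries were below DMSO by a log2 fold change of -0.08 (95% interval -0.18 to 0.03, adjusted p = 0.33, limma), which did not pass. At 0.5, 5 and 50 nM the KRT8 means were 12266 ± 967, 11781 ± 276 and 11469 ± 256 normalized counts (SD, n = 3 each). KRT18 had 4511, 4367 and 4318 in DMSO and 4618, 4258 and 4641 at 500 nM, which overlapped. Its log2 fold change was 0.03 (95% interval -0.11 to 0.18, adjusted p = 0.81, limma). The KRT18 means at 0.5, 5 and 50 nM were 4438 ± 590, 4260.0 ± 172 and 4533 ± 293 (SD, n = 3 each). Without 0.5 nM replicate 2, the log2 fold changes at 0.5 nM went from 0.02 to -0.05 for KRT8 and from 0.01 to -0.10 for KRT18, none past the threshold.

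**Figure D2:**
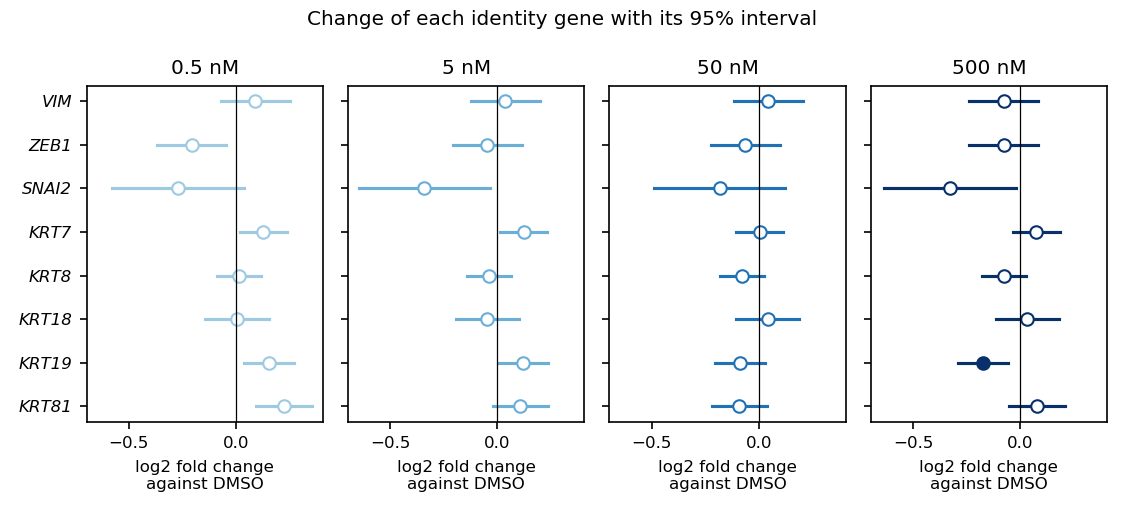
Log2 fold change against DMSO (x axis) of each of the 8 tested genes (y axis), with its 95% interval from limma as a line, in a panel per dose. The filled point passed the threshold and open points did not: 1 of 32 is filled, KRT19 at 500 nM, and SNAI2 has the widest intervals.

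The make-up of the keratins was described per transcript length. Of the summed levels per kilobase of the 5 keratins, KRT19 took 18.2%, 17.9% and 18.1% in the DMSO libraries and 15.3%, 16.5% and 16.6% at 500 nM. The share at 500 nM was below that of all 12 other libraries. At 50 nM it was 17.1% to 18.5%, at 5 nM 18.2% to 20.0% and at 0.5 nM 18.1% to 19.3%. KRT8 took 27.1% ± 0.71 in DMSO and 25.9% ± 0.39 at 500 nM, and KRT81 took 26.0% ± 1.19 and 27.7% ± 0.70 (SD, n = 3 each). The ratio of type II (KRT7, KRT8, KRT81) to type I (KRT18, KRT19) was 2.28 ± 0.05 in DMSO and 2.45 ± 0.11 at 500 nM (SD, n = 3 each). The ratios in DMSO and at 500 nM did not overlap. At 0.5 nM the ratio was 2.27 to 2.41, which overlapped the 2.34 to 2.55 at 500 nM. It was 2.19 to 2.32 at 5 nM and 2.16 to 2.30 at 50 nM. The ratio of KRT8 to its partner KRT18 was 2.14 to 2.23 in DMSO, 2.07 to 2.28 at 0.5 nM and 2.11 to 2.24 at 5 nM. It was 1.90 to 2.10 at 50 nM and 1.97 to 2.11 at 500 nM. The keratins together stood at 3.76 ± 0.13 times the VIM level in DMSO, 3.52 ± 0.15 at 50 nM and 3.93 ± 0.13 at 500 nM (SD, n = 3 each). The shares are parts of 1 sum and move against each other, and they are given as a description, without a test.

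**Figure D3:**
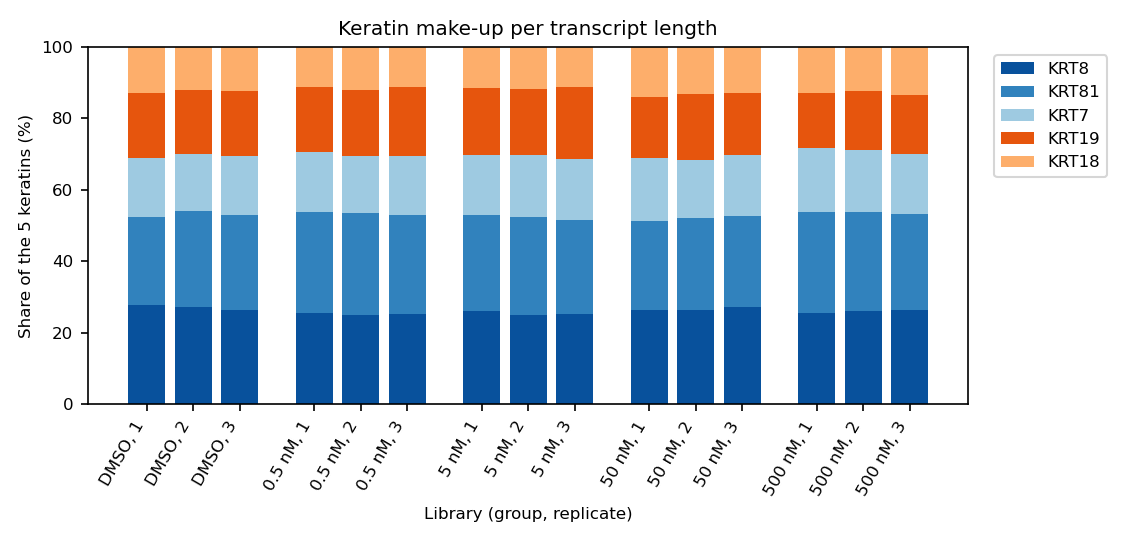
Share of each keratin (y axis, percent, stacked from 0 to 100) in the summed normalized counts per kilobase of the 5 keratins, for each library (x axis). Blue shades are type II and orange shades type I. KRT19 (dark orange) takes 15.3% to 16.6% in the 500 nM libraries and 17.9% to 18.2% in DMSO.

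Other genes of the same programmes were read from lists, which at 500 nM are set beside 7.69% of all tested genes up and 10.1% down. Of 14 further transcription factors of the transition, 9 were tested, 1 rose and 0 fell. FOSL1, a subunit of AP-1, rose by 0.42 (adjusted p = 2.9e-06, limma), from 4610.4 ± 239 to 6182 ± 142 normalized counts (SD, n = 3 each). The list's median was -0.07. Of 28 mesenchymal genes, 24 were tested, 2 rose and 12 fell, with a median of -0.18 beside 0.003 for all genes. The receptor tyrosine kinase gene AXL rose by 0.22. Among those that fell were CDH11 at -1.33, the collagen cross-linking enzyme LOX at -0.93 and the ligand WNT5A at -0.54. LOX had 1578, 1614 and 1560.4 normalized counts in DMSO and 823, 808 and 866 at 500 nM. VIM and ZEB1, at -0.08 each, lay between these and the median of all genes. At 0.5, 5 and 50 nM 3, 3 and 7 mesenchymal genes fell, beside 0.922%, 1.71% and 3.71% of all genes, and 0, 1 and 2 rose, beside 0.251%, 0.465% and 2.29%. At 0.5 nM 1 fell and 0 rose when replicate 2 was left out, beside 107 and 47 of all 13561 genes.

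Of 33 epithelial genes, 24 were tested, and 2 rose and 7 fell at 500 nM, with a median of -0.06. The tight junction gene CLDN4 had a log2 fold change of 0.49 and AP1M2, an adaptor of basolateral sorting, 0.25. SPINT1, an inhibitor of membrane serine proteases, fell by 1.16, the mucin gene MUC1 by 0.97 and ST14, which encodes the protease matriptase, by 0.67 on the log2 scale. SPINT1 had 205, 193 and 176 normalized counts in DMSO and 113, 70.8 and 76.8 at 500 nM. AP1M2 lost its call in 6 of 26 alternatives and ST14 in 7 of 25. At 0.5, 5 and 50 nM 2, 2 and 3 of the epithelial genes fell and 0, 0 and 1 rose, beside the same shares of all genes as given for the mesenchymal list. With replicate 2 left out, 3 fell and 0 rose at 0.5 nM, beside 107 and 47 of all 13561 genes. Of the fixed markers of the line, EGFR and AXL rose and CD44 and CDH1 fell at 500 nM, the last from 196 ± 6.49 to 135 ± 16.4 normalized counts (SD, n = 3 each). CDH1 did not fall evenly with dose. It was also called at 0.5 nM (-0.79, adjusted p = 0.012, limma) and 5 nM (-0.66, adjusted p = 0.019, limma). At 50 nM it was not called (-0.24, adjusted p = 0.44, limma). Its 0.5 nM libraries had 107.1, 107.1 and 125 normalized counts, with replicate 2 not apart. The means at 5 and 50 nM were 125 ± 20.3 and 168 ± 36.1.

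Of 50 other keratin genes in the table, 26 were listed at 0 in every library and 4 passed the filter (KRT80, KRT10, KRT86 and KRT15). KRT80, a type II keratin, rose at 500 nM by 0.17 (adjusted p = 0.0061, limma) from 3339, 3364 and 3326 to 3813, 3631 and 3818 normalized counts. This is a change of like size and opposite direction to that of KRT19. Of 15 other intermediate filament genes, 8 were tested, 0 rose and 2 fell, with a median of -0.07. SYNC, which encodes syncoilin, fell by 0.64 and the nuclear lamin gene LMNA by 0.15, and these calls were lost in 7 of 25 and 11 of 26 alternatives. Of 16 genes of filament linkers and desmosomes, 12 were tested, 1 rose and 2 fell, with a median of 0.15. PKP2, a plakophilin, rose by 0.18, a call lost in 2 of 26 alternatives, without DMSO replicate 1 and without 500 nM replicate 1. JUP, which encodes the desmosomal protein plakoglobin, fell by 0.43 and the desmosomal cadherin DSC2 by 0.25. The call of JUP was lost in 0 and that of DSC2 in 5 of 26 alternatives, namely without any DMSO replicate and without 500 nM replicate 1 or 3. At 0.5 nM JUP had 1450.4, 1551 and 1602 normalized counts against 1985, 1944 and 1881 in DMSO. This log2 fold change was -0.34 (adjusted p = 0.019, limma) and -0.35 without 0.5 nM replicate 2 (adjusted p = 0.024). It did not pass without any of the DMSO replicates, without 0.5 nM replicate 1 or in the 6 libraries alone.

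**Figure D4:**
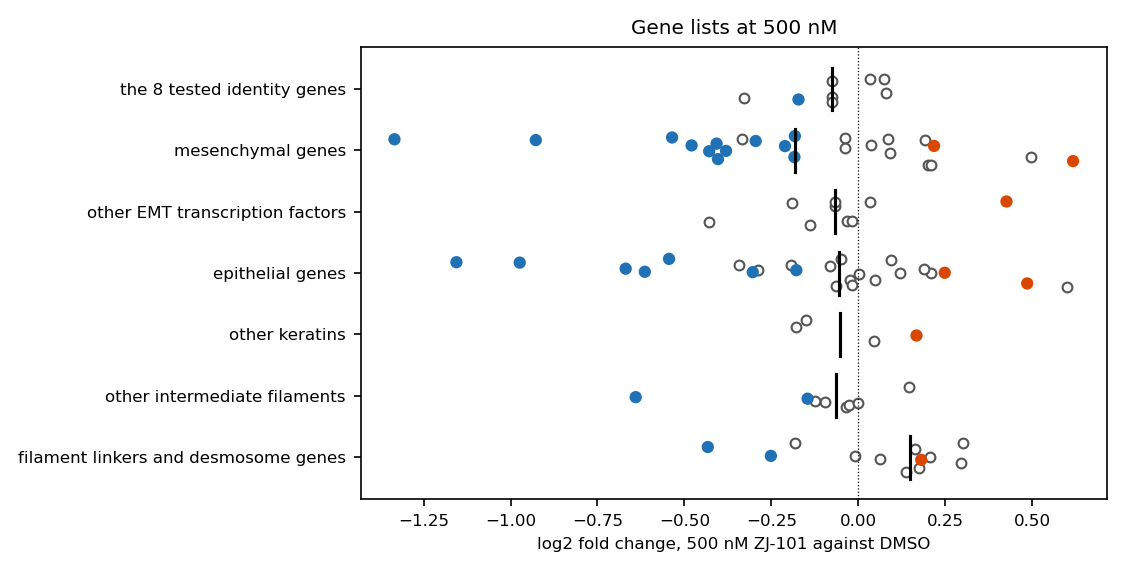
Log2 fold change at 500 nM against DMSO (x axis) of each tested gene, in rows by list. Filled points passed the threshold (orange up, blue down), open points did not, and the black line is the list's median, which is -0.08 for the 8 identity genes and -0.18 for the mesenchymal genes. Points are spread vertically only to keep them apart.

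The genes with the pattern most like each identity gene were found by Pearson's r of log2(normalized count + 1) over the 15 libraries, which share their groups and the 1 library that stood apart. For KRT19 they were BTG1 (0.96), BNIP3 (0.95) and HMG20B (0.94), and without 0.5 nM replicate 2 these were 0.95, 0.96 and 0.92. For SNAI2 they were USP15 (0.86), H2AC6 (0.83) and AKAP7 (0.81), at 0.88, 0.83 and 0.82 without it. For VIM they were YWHAB (0.94), NAP1L1 (0.90) and TEDC1 (0.89), and for ZEB1 EXOC6B, KIRREL1 and B3GALT5 (0.90 each). The likeness of these rested more on that library, at 0.81, 0.69 and 0.59 for VIM and 0.58, 0.57 and 0.52 for ZEB1 without it. KRT8 was most like BIRC5 (0.93), AKR7A2 (0.93) and ECHS1 (0.91), and KRT18 most like ISG15 (0.90), EIF3M (0.89) and POLR3K (0.88). KRT7 was most like BTBD6 (0.90), IMPDH2 (0.88) and RNF166 (0.85), and KRT81 most like GUK1 (0.89), MTHFD2 (0.87) and NDUFA8 (0.86). Without that library the values for these 4 keratins lay between 0.74 and 0.89. Ranks among all tested genes moved as well. Without it they were 8, 3 and 18 for KRT19, 1, 3 and 5 for SNAI2, 4, 47 and 210 for VIM and 199, 209 and 357 for ZEB1. For the other keratins they were 2, 9 and 17 (KRT8), 5, 11 and 16 (KRT18), 6, 11 and 19 (KRT7) and 15, 36 and 48 (KRT81).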

How the data were processed

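Poly-A RNA of 15 libraries was sequenced. Per the submitters' processing notes and the paper, the authors used HISAT2 (hg38) for alignment and HTSeq for counting, and deposited signal values, namely counts divided by DESeq2 size factors (0.916 to 1.13). Tool versions and strandedness are not given in the sources used here. 1 line that held no gene was left out. Every value (100%) was a whole multiple of its library's smallest value step (tolerance 0.001), and these multiples served as reads for edgeR and DESeq2 as alternatives.

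Each dose was compared with DMSO by limma (mean-dependent prior variance) on log2(normalized count + 1), for genes with a mean of at least 10. All groups entered 1 fit and p was adjusted over all genes by Benjamini-Hochberg (threshold 0.05). The fold changes understate those of low genes. A second fit took the rank of the dose.

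The identity genes and lists were chosen with earlier results of these data known. Of each list, up to 3 called rises and 3 called falls with the largest change were named, except 1 that is not reported here. Likeness without 0.5 nM replicate 2 was added after seeing the data. Annotation was GENCODE 44 on GRCh38, and a near-identical gene has at least 95% identity over at least 50% of a transcript (blastn 2.17.0). Tests were checked on simulated data. Software was limma 3.58.1 and edgeR 4.0.16 in R 4.3.3, with DESeq2 1.42.0 there too, and Python 3.11.15.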

Additional observations from a re-analysis of the deposited data

How the results depend on the processing

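Each result was recomputed under 26 alternatives, 15 of which left out 1 library. For the identity genes this gave 1040 values, which cover the comparisons with DMSO for each tested gene. Steps between doses and slopes are included for KRT19 and KRT81 only. Of the 1040, 991 kept their direction and side of the threshold, 25 lost the call, 14 gained it and 10 changed sign. With no filter, 0 identity genes were called at 500 nM, 0 by slope, 0 between neighbouring doses, and 0 other intermediate filament genes. With DESeq2 the counts were 1 at 0.5 nM, 2 between neighbouring doses and 1 other filament gene, and the last was also 1 with a mean of at least 50. With an adjusted p under 0.1 they were 1 at 0.5 nM, 2 between neighbouring doses and 5 linker and desmosome genes. With only the libraries compared, they were 2 at 5 nM (KRT19 and KRT7), 2 between neighbouring doses, 2 other transcription factors and 7 linker and desmosome genes. Calls over all 13561 genes moved too. With only the libraries compared they were 846 at 5 nM and 3294 at 500 nM, and in the main fit 295 and 2409. At 0.5 nM they were 231 with DESeq2 and 285 at an adjusted p under 0.1, against 159. At 500 nM an adjusted p under 0.1 gave 3122. With no filter, 2023 of 31620 genes were called at 500 nM. The cause of these moves was not tested. TMM factors, equal totals, edgeR and pseudocounts of 0.5 and 5 kept every count within 1.5 times.

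Leaving out 1 library gave 0 to 2 called identity genes at 0.5 nM, 0 to 1 at 500 nM, 0 to 1 by slope and 0 to 3 between neighbouring doses. At 500 nM the ranges were 1 to 2 for the other transcription factors and for the other keratins (2 without 0.5 nM replicate 2), 5 to 9 for the epithelial genes (5 without 500 nM replicate 1) and 12 to 15 for the mesenchymal genes. They were 0 to 2 for the other filament genes (0 without any DMSO replicate or 500 nM replicate 1 or 3) and 1 to 7 for the linker and desmosome genes (1 without DMSO replicate 1 or 500 nM replicate 1, 5 without 0.5 nM replicate 3 and 7 without 0.5 nM replicate 2). Calls over all genes at 500 nM were 1855 without DMSO replicate 1 and 1911 without 500 nM replicate 1. They were 2539 without 0.5 nM replicate 3 and 3097 without 0.5 nM replicate 2. Among the 1040 values, those that changed sign at 0.5 nM were VIM (-0.046 to 0.174), KRT8 (-0.046 to 0.062) and KRT18 (-0.101 to 0.070). At 50 nM they were KRT7 (-0.037 to 0.035) and KRT18 (-9.9e-05 to 0.093). From 0.5 to 5 nM it was KRT19 (-0.079 to 0.027), and none of these passed the threshold. Steps and slopes of genes other than KRT19 and KRT81 are not among the 1040, and some of them also changed sign. Without 0.5 nM replicate 2 the difference from 0.5 to 5 nM went from -0.053 to 0.083 for VIM and from -0.052 to 0.055 for KRT18. The ZEB1 slope lay between -0.015 and 0.010 when 1 library was left out.

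The replicate number as a block called 1 identity gene at 0.5 nM (KRT81) and 2 between neighbouring doses, and changed no other count of identity genes. Same-numbered libraries of different groups had correlations of their deviations between -0.085 and 0.096, so the numbers were not taken as pairs. Precision differed by gene. In the main fit the 95% interval of the change at 500 nM ran from -11.6% to 1.83% for KRT8. For SNAI2 it ran from -35.6% to -1.45%.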
